A study of Mus musculus with 21 samples.

Results

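The amino acid stress response genes described here are 40 genes chosen by name: regulators around the transcription factor ATF4, enzymes of amino acid synthesis, folate-linked enzymes of serine metabolism, amino acid transporters and cytosolic aminoacyl-tRNA synthetases. Gene symbols were matched to a table of RPKM values (reads per kilobase of gene, scaled to the library's total reads) of cultured mouse natural killer (NK) cells. Of the 40 genes, 35 had a value, among 11736 genes in the table. Each of the 35 reached 1 RPKM in 3 or more of the 15 libraries, the filter that left 10032 genes for testing. Atf4, Cth, Slc7a11, Slc38a1 and Slc38a2 were not analysed here.

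The study compared mice that lose Ikzf1, Ikzf3 or both in NK cells with mice that carry only the Cre recombinase. Ikzf1 and Ikzf3 encode the zinc finger transcription factors Ikaros and Aiolos. Splenic NK cells were sorted and then grown in interleukin 15 at 50 ng/ml, which all 15 libraries share. The groups were Cre only (4 libraries, S16 to S19), Ikzf1 knockout (Ikzf1 KO, 4 libraries, S12 to S15), Ikzf3 knockout (Ikzf3 KO, 4 libraries, S1 to S4) and the knockout of both (DKO, 3 libraries, S5 to S7). Every group, the Cre only controls included, carries Cre. The promoter that drives it and the age and sex of the mice are not given in the sources used here. The labels call the libraries biological replicates. The 6 directly sorted samples were not analysed here.

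Cells that run short of an amino acid, or whose endoplasmic reticulum is stressed, activate kinases that phosphorylate the translation factor eIF2. Most translation then slows while ATF4 is made, and ATF4 with C/EBP partners raises genes that take up, make and charge amino acids onto transfer RNA. The same pathway induces regulators such as CHOP (gene Ddit3) and TRIB3. NK cells grown in interleukin 15 enlarge and divide, and they draw on amino acid transport for this.

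Read depth recovered from the table ran from 8.61 to 21.2 megareads per library over 11291 genes. The targeted genes were lower where deleted without reaching 0: Ikzf1 at 18.3 to 19.9 RPKM in Ikzf1 KO and 25.3 to 38.4 in DKO libraries against 57.7 to 69.4 in Cre only, and Ikzf3 at 15.2 to 20.2 in Ikzf3 KO and 20.0 to 23.7 in DKO libraries against 37.7 to 45.0. NK cell markers were present (8 of 9 listed genes had values). Ikzf3 KO libraries fell into 2 pairs. S1 and S2 correlated with each other at 0.990 across genes and with Cre only libraries at 0.954 to 0.965, whereas S3 and S4 correlated at 0.974 with each other and at 0.881 to 0.908 with Cre only. Myc, a growth regulator, averaged 64.6 RPKM in Cre only libraries and stood at 60.5 and 62.9 in S1 and S2 but at 7.11 and 10.5 in S3 and S4. Within Cre only, S16 with S17 (0.993) and S18 with S19 (0.988) were closer than across these pairs (0.964 to 0.975). No label names what parts these libraries. Members called without S3 and S4 are therefore counted where that number changed, and many of the changed calls are named.

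Many of these genes were higher in cells with Ikzf3 alone deleted, whereas none rose in cells with both genes deleted. Against Cre only cells, 14 of 35 members rose in Ikzf3 KO cells and 0 fell (limma, adjusted p below 0.05), where 6.3% of all genes tested rose and 7.88% fell. The 14 were the regulators Trib3, Chac1 and Atf5, the synthesis enzymes Asns, Pycr1, Gpt2 and Pck2, the folate enzyme Mthfd2, the transporter genes Slc1a4 and Slc3a2 and the synthetases Cars, Sars, Mars and Yars. The median log2 fold change over the 35 members was 0.38, against -0.02 over all genes tested. In Ikzf1 KO cells 0 members rose and 1 fell, where 3.54% and 2.78% of all genes did. In DKO cells 0 members rose and 6 fell, where 8.06% of all genes rose and 10.6% fell. Fold changes are on the scale of log2(RPKM + 0.5), which understates changes of low genes. In bulk samples, a smaller share of expressing cells and less RNA per cell cannot be told apart.

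**Figure D1:**
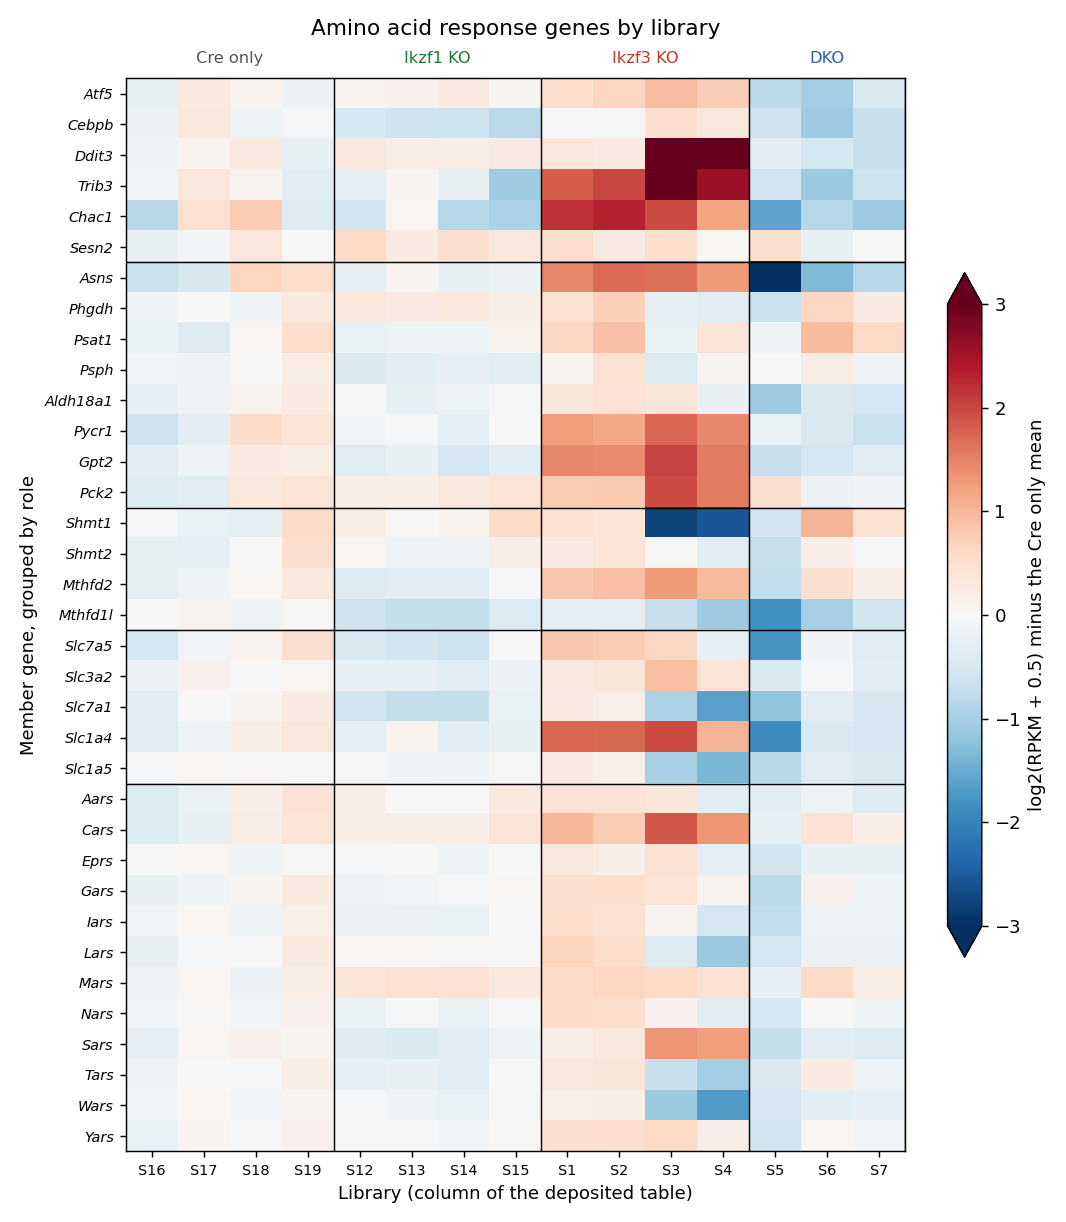
Each cell shows log2(RPKM + 0.5) of a member gene (vertical axis, grouped by role) in a library (horizontal axis, grouped by genotype), minus the mean of the 4 Cre only libraries. Red is above and blue below that mean, with differences beyond 3 drawn in the darkest shade. The 14 genes that rose in Ikzf3 KO cells are red in all of S1 to S4, while S3 and S4 are blue for Shmt1, Slc7a1, Slc1a5, Lars, Tars and Wars.

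Among the regulators, Trib3, a pseudokinase that ATF4 and CHOP induce, had the largest log2 change of the 35 members in Ikzf3 KO cells. Trib3 (chromosome 2, positions 152337422 to 152344032 of mm10) stood at 6.18, 8.38, 7.20 and 5.15 RPKM in Cre only libraries S16 to S19 and at 24.7, 28.2, 69.0 and 41.6 in Ikzf3 KO libraries S1 to S4. Ikzf1 KO libraries S12 to S15 held 5.31, 7.03, 5.58 and 2.93 RPKM, and DKO libraries S5 to S7 held 4.30, 2.82 and 4.07. All 4 Ikzf3 KO libraries lay above all 11 others, with S3 the highest. Trib3 rose by a log2 fold change of 2.42 ± 0.30 (SE), or 5.35-fold (adjusted p = 0.000264).

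Chac1, which encodes an enzyme that degrades glutathione, was low in every group but Ikzf3 KO. It stood at 0.338, 1.54, 2.04 and 0.635 RPKM in Cre only libraries, at 6.22, 6.89, 5.24 and 2.87 in Ikzf3 KO, at 0.519, 1.06, 0.327 and 0.272 in Ikzf1 KO and at 0, 0.330 and 0.197 in DKO libraries. The lowest Ikzf3 KO library, S4, was above the highest Cre only library. These values rest on 0 to 121 reads per library. Chac1 rose by 1.90 ± 0.35 (adjusted p = 0.0040) in Ikzf3 KO cells.

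Atf5, a transcription factor related to ATF4, moved in both directions. Its RPKM was 5.59, 8.25, 7.15 and 5.86 in Cre only libraries, 9.80, 10.6, 13.1 and 11.5 in Ikzf3 KO, 7.22, 7.33, 8.0 and 7.05 in Ikzf1 KO and 3.64, 2.98 and 4.67 in DKO libraries. The Ikzf3 KO libraries were all above and the DKO libraries all below the other libraries. Atf5 rose by 0.71 ± 0.15 in Ikzf3 KO cells (adjusted p = 0.00763) and fell by 0.76 ± 0.16 in DKO cells (adjusted p = 0.00451), both against Cre only. Atf5 shares 4.11% of its exon bases with genes on the opposite strand, Nup62 among them. The strand setting used in counting is not given in the sources used here.

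Ddit3, which encodes CHOP, set the 2 pairs of Ikzf3 KO libraries apart. It stood at 9.78 and 9.04 RPKM in S1 and S2 and at 109 and 99.6 in S3 and S4, against 6.86, 8.05, 9.19 and 6.43 in Cre only libraries. Ikzf1 KO libraries held 9.72, 8.87, 8.92 and 9.16 RPKM, and DKO libraries 5.96, 5.10 and 4.52. S3 and S4 were far above the 13 other libraries, and S2 lay within the Cre only range. The log2 fold change of 2.00 ± 0.65 did not pass (adjusted p = 0.0524), passed without S1 (2.55, adjusted p = 0.0111) or S2 (2.58, adjusted p = 0.0101), and was 0.30 without S3 and S4. Ddit3 and Mars overlap by 68 exon bases on opposite strands.

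Cebpb, the gene of a C/EBP partner of ATF4, fell in the groups with Ikzf1 deleted. It held 5.70, 8.22, 5.88 and 6.30 RPKM in Cre only libraries and 6.38, 6.28, 9.35 and 8.33 in Ikzf3 KO, against 4.29, 4.01, 3.92 and 3.46 in Ikzf1 KO and 4.02, 2.77 and 3.78 in DKO libraries. All 7 libraries with Ikzf1 deleted lay below all 8 with it intact. Cebpb fell by 0.66 ± 0.16 in Ikzf1 KO cells (adjusted p = 0.0235), the only member called there, and by 0.80 ± 0.17 in DKO cells (adjusted p = 0.00504). The call in Ikzf1 KO cells was lost without S13, S14, S15 or S17 (adjusted p up to 0.0809), and the call in DKO cells kept. Cebpb shares 20.7% of its exon bases with Tmem189 on the opposite strand. Sesn2, a leucine sensor and mTORC1 inhibitor, was the remaining regulator. It averaged 10.7 ± 1.97 RPKM (SD, n = 4) in Cre only and 13.7 ± 2.13 (SD, n = 4) in Ikzf3 KO libraries. Its highest group mean was in Ikzf1 KO libraries, at 14.5 ± 1.52 RPKM (SD, n = 4). The log2 difference there was 0.43 and did not pass (adjusted p = 0.165). Sesn2 passed in none of the comparisons with all libraries in the fit, no weights and no added term. With S5, S15, S18 and S19 as a term it was called higher in Ikzf1 KO than in Cre only cells.

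**Figure D2:**
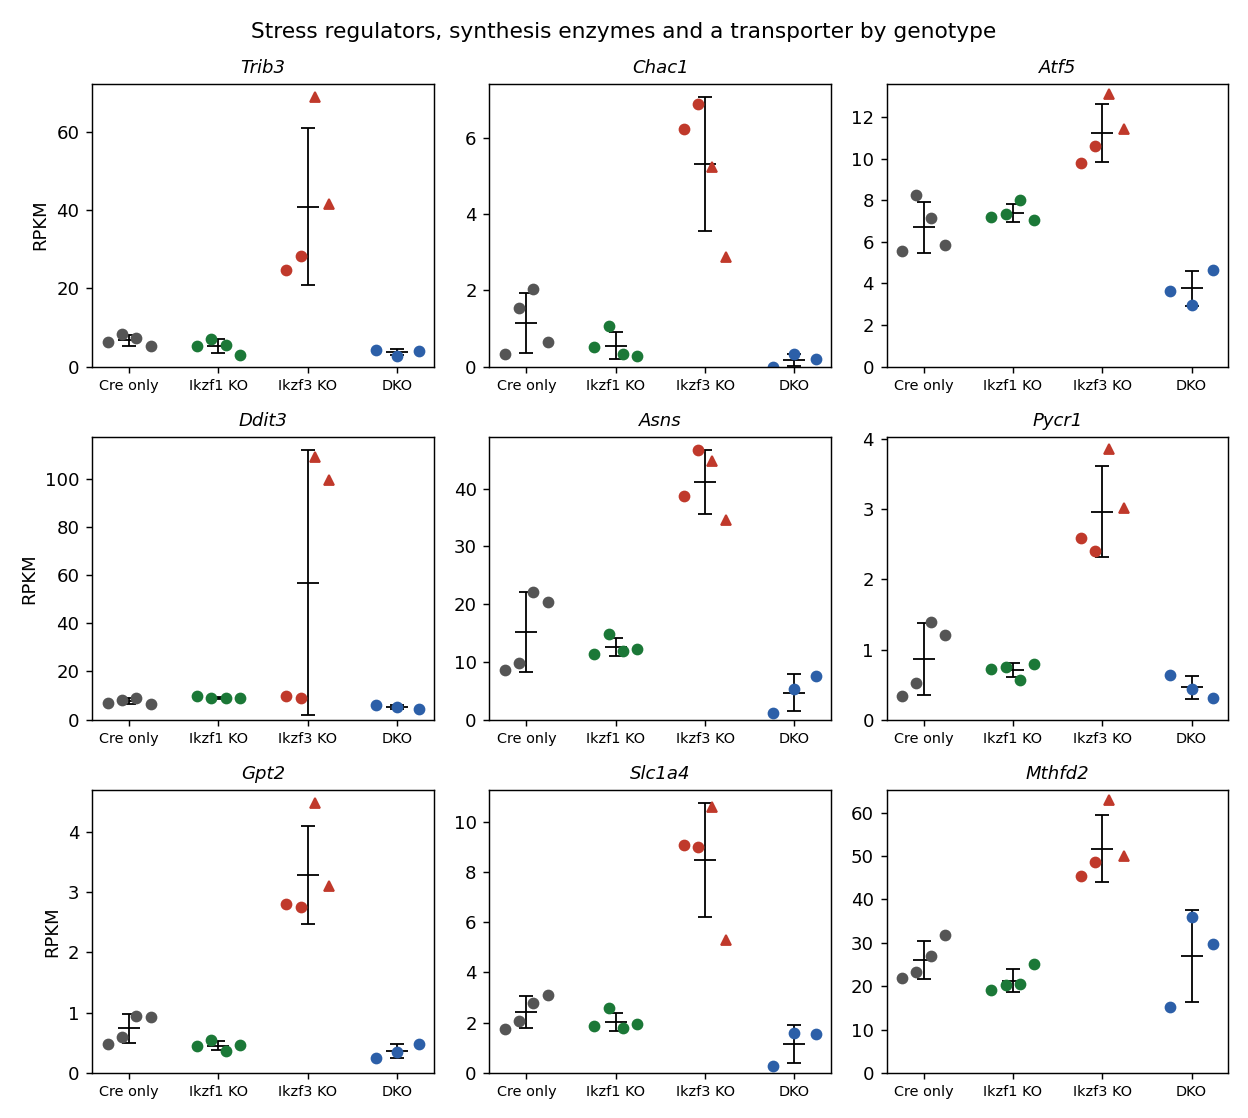
RPKM (vertical axis, linear, from 0) of 9 member genes in each library, by genotype (horizontal axis). Points are libraries, with S3 and S4 as triangles, and bars are the group mean and SD. Ddit3 is high in S3 and S4 alone (109 and 99.6), while Trib3, Chac1, Atf5, Asns, Pycr1, Gpt2, Slc1a4 and Mthfd2 are above every library of the other groups in all 4 Ikzf3 KO libraries.

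Of the 8 synthesis enzymes, 4 rose in Ikzf3 KO cells. Asns encodes asparagine synthetase (chromosome 6, positions 7675169 to 7693254). Its RPKM was 8.57, 9.84, 22.1 and 20.3 in Cre only libraries and 38.7, 46.6, 44.7 and 34.6 in Ikzf3 KO libraries. Ikzf1 KO libraries held 11.4, 14.8, 11.8 and 12.3, and DKO libraries 1.15, 5.26 and 7.48. The DKO libraries were below and the Ikzf3 KO libraries above all others, and Ikzf1 KO lay within the Cre only range. Asns rose by 1.51 ± 0.40 in Ikzf3 KO cells (2.86-fold, adjusted p = 0.0242) and fell by 1.77 ± 0.43 in DKO cells (3.42-fold, adjusted p = 0.0109). Cre only libraries themselves parted, S18 and S19 above S16 and S17. Against S18 and S19 alone the difference in Ikzf3 KO cells was 0.93 and did not pass (adjusted p = 0.213), and against S16 and S17 alone the difference in DKO cells was -1.19 and did not pass (adjusted p = 0.124). The rise was also no longer called when S3, S16 or S17 was left out (adjusted p up to 0.0722) and without S3 and S4 together (1.57, adjusted p = 0.0760).

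Pycr1, which makes proline, and Gpt2, the mitochondrial alanine transaminase, were weakly expressed outside Ikzf3 KO cells. Pycr1 held 0.334, 0.518, 1.40 and 1.21 RPKM in Cre only libraries, 2.59, 2.40, 3.86 and 3.02 in Ikzf3 KO, 0.720, 0.755, 0.562 and 0.791 in Ikzf1 KO and 0.631, 0.436 and 0.312 in DKO libraries. Gpt2 held 0.478, 0.590, 0.948 and 0.932 RPKM in Cre only libraries, 2.80, 2.74, 4.48 and 3.10 in Ikzf3 KO, 0.442, 0.541, 0.356 and 0.465 in Ikzf1 KO and 0.250, 0.348 and 0.481 in DKO libraries. For both genes the 4 Ikzf3 KO libraries stood clear of the 11 others. Pycr1 rose by 1.41 ± 0.24 (adjusted p = 0.00220) and Gpt2 by 1.61 ± 0.18 (adjusted p = 0.000106), the smallest adjusted p of the 35 members. Counts behind them were 19 to 191 reads per library for Pycr1 and 21 to 318 for Gpt2. Gpt2 reached 1 RPKM in Ikzf3 KO libraries alone, and Pycr1 otherwise only in S18 and S19. Both thus met the filter of 1 RPKM in 3 libraries through the group where they were high. Their place among the genes tested depended on that group.

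Pck2 encodes the mitochondrial phosphoenolpyruvate carboxykinase. It held 5.39, 5.56, 9.39 and 9.90 RPKM in Cre only, 12.6, 12.9, 29.9 and 22.5 in Ikzf3 KO, 8.59, 8.49, 9.32 and 9.90 in Ikzf1 KO and 10.4, 6.42 and 6.71 in DKO libraries. S3 and S4 were the highest, and S1 and S2 also lay above all libraries of other groups. Pck2 rose by 1.27 ± 0.27 (adjusted p = 0.00871) in Ikzf3 KO cells, a call lost without S3 and S4 (0.77, adjusted p = 0.0635) and without S16 and S17 (0.89, adjusted p = 0.106).

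Of the serine synthesis enzymes, none was called with all libraries in the fit. Phgdh, the first enzyme of that route, stood at 91.6 and 109 RPKM in S1 and S2 and at 54.3 and 52.8 in S3 and S4, on either side of the Cre only range of 60.04 to 80.9. Psat1 and Psph, the next steps, averaged 69.0 ± 20.4 and 8.39 ± 2.10 RPKM (SD, n = 4) in Ikzf3 KO against 51.1 ± 14.96 and 7.86 ± 0.905 (SD, n = 4) in Cre only libraries. Phgdh, Psat1 and Psph passed in none of the comparisons with all libraries in the fit. Without S3 and S4, Psph was higher in DKO than in Ikzf1 KO cells (0.37, adjusted p = 0.0427). It was then also lower in Ikzf1 KO than in Ikzf3 KO cells (-0.61, adjusted p = 0.0107). Psph shares 10.4% of its exon bases with Cct6a on the opposite strand. Aldh18a1, which starts proline synthesis from glutamate, held 29.3, 32.4, 37.5 and 41.4 RPKM in Cre only, 34.9, 30.02, 31.2 and 34.0 in Ikzf1 KO, 45.1, 46.95, 45.1 and 29.9 in Ikzf3 KO and 16.3, 25.8 and 24.1 in DKO libraries. The DKO libraries were below all others. Aldh18a1 fell by 0.67 ± 0.19 in DKO cells (adjusted p = 0.0224), a call lost without S5, S18 or S19 (adjusted p up to 0.0906).

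Of the folate-linked enzymes, Mthfd2 alone rose in Ikzf3 KO cells. Mthfd2, a mitochondrial enzyme that oxidizes folate-bound carbon from serine, held 21.9, 23.3, 27.0 and 31.8 RPKM in Cre only, 45.4, 48.6, 62.9 and 49.9 in Ikzf3 KO, 19.2, 20.3, 20.4 and 25.2 in Ikzf1 KO and 15.1, 35.9 and 29.7 in DKO libraries. The Ikzf3 KO libraries did not overlap with any other group, while DKO libraries spread past the Cre only range on both sides. Mthfd2 rose by 0.98 ± 0.22 (adjusted p = 0.0101), which did not pass without S3 and S4 or without S16 and S17. Mthfd1l, its partner in releasing formate, went the other way. It held 49.5, 54.3, 45.5 and 51.7 RPKM in Cre only, 32.2, 30.5, 30.4 and 37.8 in Ikzf1 KO, 42.1, 41.5, 30.9 and 23.6 in Ikzf3 KO and 13.9, 25.0 and 33.9 in DKO libraries, so that every knockout library lay below every Cre only library. The fall passed in DKO cells only, by 1.12 ± 0.25 (adjusted p = 0.00675), and whether it differs from the single knockouts' values of -0.61 and -0.57 was not called (DKO minus Ikzf1 KO -0.51, adjusted p = 0.262, and DKO minus Ikzf3 KO -0.55, adjusted p = 0.133). Without S3 and S4 the difference between DKO and Ikzf3 KO cells was called (-0.86, adjusted p = 0.0342). Without S16 and S17 the fall in DKO cells had an adjusted p of 0.0522.

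Shmt1, the cytosolic serine hydroxymethyltransferase, was nearly lost in 2 libraries. It stood at 0.573 and 0.743 RPKM in S3 and S4, against 9.603 and 9.12 in S1 and S2 and 5.51 to 10.3 in Cre only libraries. S1 and S2 lay within the Cre only range. The log2 difference of -1.13 did not pass (adjusted p = 0.222) and was 0.41 without S3 and S4. Shmt2, the mitochondrial form, averaged 70.8 ± 14.1 RPKM (SD, n = 4) in Ikzf3 KO and 66.8 ± 16.6 (SD, n = 4) in Cre only libraries and passed no test.

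Slc1a4 and Slc3a2 were the transporter genes that rose. Slc1a4 encodes a carrier of alanine, serine and other neutral amino acids (chromosome 11, positions 20302180 to 20332713). It held 1.73, 2.08, 2.76 and 3.10 RPKM in Cre only, 9.05, 8.99, 10.6 and 5.27 in Ikzf3 KO, 1.85, 2.57, 1.77 and 1.94 in Ikzf1 KO and 0.256, 1.60 and 1.53 in DKO libraries. Ikzf3 KO libraries were above and DKO libraries below every other library. Slc1a4 rose by 1.61 ± 0.30 in Ikzf3 KO cells (3.05-fold, adjusted p = 0.00395, and 0.0552 without S16 and S17), and the difference in DKO cells, -0.96 ± 0.32, did not pass (adjusted p = 0.0531). Slc3a2, the heavy chain that carries Slc7a5 to the cell surface, held 42.9, 53.4, 48.6 and 50.6 RPKM in Cre only, 59.5, 62.8, 91.0 and 64.8 in Ikzf3 KO, 40.9, 41.2, 38.7 and 43.4 in Ikzf1 KO and 35.2, 46.7 and 39.3 in DKO libraries. It rose by 0.49 ± 0.14 in Ikzf3 KO cells (adjusted p = 0.0334), a call lost without S3, S16, S18 or S19 (adjusted p up to 0.0900) and without S3 and S4.

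Slc7a5, the leucine carrier itself, spread widely and passed only between DKO and Ikzf3 KO cells. It stood at 122, 118, 106 and 56.4 RPKM in S1 to S4, at 47.8, 65.4, 74.4 and 96.7 in Cre only, at 49.8, 46.7, 43.6 and 68.5 in Ikzf1 KO and at 19.8, 64.2 and 53.8 in DKO libraries. Ikzf3 KO and Cre only libraries overlapped through S4. The arginine carrier gene Slc7a1 and the glutamine carrier gene Slc1a5 were higher in S1 and S2 than in S3 and S4. Slc7a1 stood at 22.1 and 20.3 RPKM in S1 and S2 and at 9.30 and 5.56 in S3 and S4. Cre only libraries held 14.5 to 21.5, so S2 lay within their range. Slc1a5 stood at 74.5 and 69.4 RPKM in S1 and S2 and at 31.1 and 24.01 in S3 and S4, against 59.8 to 65.0. Neither gene passed in any comparison with all libraries in the fit. Without S3 and S4 both were lower in DKO than in Cre only cells (Slc7a1 -0.67, adjusted p = 0.0201, and Slc1a5 -0.54, adjusted p = 0.00228). Both were then also lower in DKO than in Ikzf3 KO cells. In that fit Slc7a1 was lower in Ikzf1 KO than in Ikzf3 KO cells, and Slc1a5 lower in DKO than in Ikzf1 KO cells.

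Among the 12 synthetases, 4 rose in Ikzf3 KO cells. Cars, which charges cysteine, held 4.48, 5.12, 7.14 and 8.205 RPKM in Cre only, 12.7, 10.7, 23.5 and 16.04 in Ikzf3 KO, 6.92, 6.87, 7.08 and 8.10 in Ikzf1 KO and 4.84, 8.41 and 7.02 in DKO libraries. All 4 Ikzf3 KO libraries lay above the others. Cars rose by 1.24 ± 0.24 (2.37-fold, adjusted p = 0.00449, and 0.0666 without S16 and S17).

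Sars, which charges serine, held 45.9, 56.8, 59.9 and 58.1 RPKM in Cre only, 63.6, 70.1, 137 and 131 in Ikzf3 KO, 42.2, 40.3, 44.4 and 49.7 in Ikzf1 KO and 33.5, 43.0 and 41.7 in DKO libraries. S3 and S4 stood well above S1 and S2, which were just above Cre only. The rise of 0.78 ± 0.22 (adjusted p = 0.0325) was 0.28 without S3 and S4 and lost its call without any one of S3, S4 and S16 to S19 (adjusted p up to 0.0957). Mars, for methionine, held 36.0, 40.5, 34.1 and 44.8 RPKM in Cre only, 57.1, 60.2, 58.9 and 52.9 in Ikzf3 KO, 51.1, 53.3, 52.4 and 47.8 in Ikzf1 KO and 32.7, 58.2 and 45.0 in DKO libraries. Ikzf1 KO libraries lay above all Cre only libraries too, without passing (0.40, adjusted p = 0.143). Mars rose by 0.56 ± 0.15 in Ikzf3 KO cells (adjusted p = 0.0249), a call lost without S3, S16 or S18. Yars, for tyrosine, at 27.3, 28.0, 29.8 and 22.3 RPKM in Ikzf3 KO against 16.9, 20.5, 19.3 and 21.4 in Cre only libraries, rose by 0.44 ± 0.14 with an adjusted p of 0.0499, a call lost without any of 12 of the 15 libraries.

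Gars, Eprs, Aars, Iars, Nars, Lars, Tars and Wars did not pass against Cre only cells. Without S3 and S4, Lars (0.60, adjusted p = 0.0161) and Nars (0.54, adjusted p = 0.0238) passed in Ikzf3 KO cells. Lars, Tars and Wars, for leucine, threonine and tryptophan, differed between the pairs of Ikzf3 KO libraries. Wars stood at 45.0 and 46.8 RPKM in S1 and S2 and at 18.5 and 12.2 in S3 and S4, against 38.6 to 43.1 in Cre only libraries. Tars stood at 28.7 and 28.8 RPKM in S1 and S2 and at 13.8 and 10.7 in S3 and S4, against 20.0 to 25.9. Lars stood at 50.9 and 46.5 RPKM in S1 and S2 and at 23.9 and 14.6 in S3 and S4, against 27.5 to 38.8. For these genes, and for Phgdh and Slc1a5, S1 and S2 were above and S3 and S4 below the whole Cre only range.

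**Figure D3:**
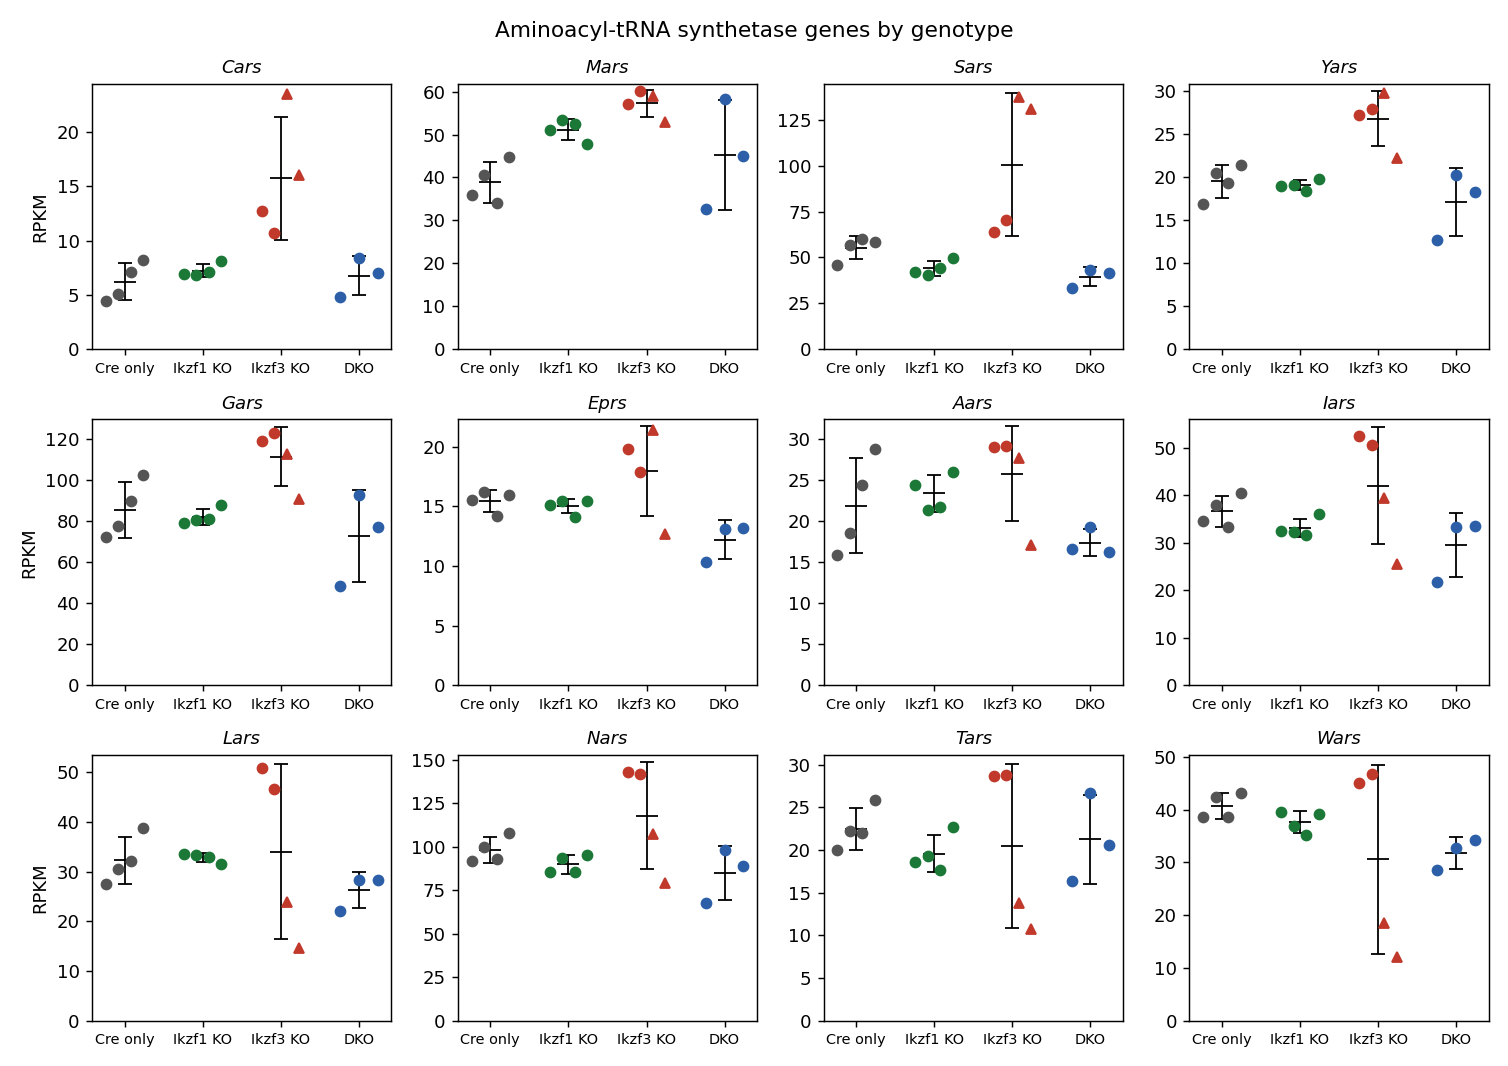
RPKM (vertical axis, linear, from 0) of the 12 synthetase genes in each library, by genotype (horizontal axis). Points are libraries, with S3 and S4 as triangles, and bars are the group mean and SD. In Cars, Mars, Sars and Yars all 4 Ikzf3 KO libraries are above the Cre only libraries, while in Lars, Tars and Wars the triangles lie below them and the circles of S1 and S2 above.

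Counted by pair, S1 and S2 were both above all 4 Cre only libraries for 27 of 35 members, where 17.9% of all genes were, and both below for 1, where 22.7% were. S3 and S4 were above for 16 members, where 29.4% of all genes were, and below for 8, where 32.1% were. The members above in both pairs were 14, the same 14 that passed the test. Non-overlap of all 4 Ikzf3 KO with all 4 Cre only libraries in the upward direction held for 7.68% of all genes. Without S3 and S4, 9 members passed and the median log2 fold change was 0.49. Of the 14, 7 were among these 9 (Trib3, Chac1, Atf5, Gpt2, Pycr1, Slc1a4 and Cars), with Lars and Nars besides. Without S3 alone, or S16 alone, 9 passed as well, and without S16 and S17 together 5 did. Trib3, Chac1 and Atf5 passed under each alternative tried, and Pycr1 and Gpt2 under each but the filter of an RPKM of at least 5, which left them out. Chac1 met that filter only through Ikzf3 KO libraries S1 to S3. Pycr1 and Gpt2 needed Ikzf3 KO libraries to meet the filter of 1 RPKM, and fits with libraries left out kept the same genes. For Chac1, Pycr1 and Gpt2 the filters are thus no separate support. Pck2, Cars, Mthfd2 and Slc1a4 kept their calls when any 1 library was left out. Myc and ribosome biogenesis genes moved with the pairs. Of 20 listed genes with values, 0 passed in Ikzf3 KO cells, with a median of -0.87 over all 4 libraries and 0.31 without S3 and S4. Their part in the result was not tested.

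The sequences near the start sites of these genes are shown because ATF4 and C/EBP proteins pair on a known composite element, of which TGATGNAA is the core (N, any base). Windows of 300 bases (250 before to 50 after the start, RefSeq, build GRCm38.p6) were searched on both strands. Of the 35 members, 29 had a window, and 11 of these (37.9%) held the core, against 2.69% of 7554 tested genes and 3.97% of all 32851 windows. Because the members were chosen by name around ATF4, a higher share among them follows from that choice and is no finding of these data. Among members that rose in Ikzf3 KO cells 7 of 13 with a window held it, and among the others 4 of 16. Slc7a5, Slc1a5, Cars, Lars, Nars and Wars had no window. Distances are counted from the RefSeq start, which for Asns and Trib3 differs from the gene positions given above (GENCODE release M21). The stretches below run 5′ to 3′ on the gene's strand, with the core, or its reverse complement TTNCATCA, in capitals.
Asns, chr6:7693210-7693272, minus strand, core 23 bases before the start: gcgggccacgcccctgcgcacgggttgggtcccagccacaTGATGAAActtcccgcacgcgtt
Pycr1, chr11:120643804-120643891, minus strand, core 103 bases before the start: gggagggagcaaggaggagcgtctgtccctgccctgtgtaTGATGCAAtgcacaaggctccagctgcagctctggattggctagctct
Chac1, chr2:119351009-119351096, plus strand, core 193 bases before the start: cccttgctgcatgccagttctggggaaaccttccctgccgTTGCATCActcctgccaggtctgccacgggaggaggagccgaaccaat
Pck2, chr14:55540123-55540210, plus strand, core 103 bases before the start: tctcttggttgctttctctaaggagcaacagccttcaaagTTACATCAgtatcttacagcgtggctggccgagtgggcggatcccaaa
Trib3, chr2:152344028-152344057, minus strand, core 15 bases after the start: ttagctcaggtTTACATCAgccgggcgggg
Slc1a4, chr11:20332699-20332728, minus strand, core from 4 bases before the start: tgcctcctgcgTTGCATCAtctccagcctg
Yars, chr4:129189895-129189924, plus strand, core 4 bases after the start: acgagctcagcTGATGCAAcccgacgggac

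The core in Asns, Pycr1 and Yars reads forward and that in Chac1, Pck2, Trib3 and Slc1a4 in reverse. For comparison, these synthetase genes held it without passing in Ikzf3 KO cells.
Tars, chr15:11399659-11399713, minus strand, core 15 bases before the start: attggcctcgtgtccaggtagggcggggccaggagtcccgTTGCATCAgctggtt
Gars, chr6:55037931-55038000, plus strand, core 30 bases before the start: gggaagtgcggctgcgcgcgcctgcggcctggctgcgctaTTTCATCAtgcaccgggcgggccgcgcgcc
Iars, chr13:49682126-49682155, plus strand, core 8 bases after the start: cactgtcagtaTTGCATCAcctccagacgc
Aars, chr8:111033690-111033777, plus strand, first of 2 cores, 112 bases before the start: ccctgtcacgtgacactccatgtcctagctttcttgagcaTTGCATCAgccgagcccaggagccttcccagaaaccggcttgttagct

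In these letters TTGCATCA recurs in Chac1, Slc1a4, Tars, Iars and Aars, and Pycr1 and Yars hold its reverse complement, TGATGCAA. Tars, with the same 8 letters as Slc1a4, stood above the Cre only range in S1 and S2 and below it in S3 and S4. The part of the core in these values was not tested. Gpt2, Atf5, Mthfd2, Slc3a2, Mars and Sars rose without a match in their windows. A match describes letters and no binding was measured.

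The comparison of DKO with Ikzf1 KO cells asks what loss of Ikzf3 does where Ikzf1 is also deleted, and it shares no library with that of Ikzf3 KO against Cre only cells. In DKO against Ikzf1 KO cells 0 members rose and 2 fell, where 3.76% of all genes rose and 3.72% fell. Those 2 were Atf5, which fell by 0.91 ± 0.16 (adjusted p = 0.00268), and Asns, which fell by 1.62 ± 0.43 (adjusted p = 0.0354). These 2 genes thus rose in the comparison with Ikzf1 intact and fell in that with Ikzf1 deleted. The groups of the latter differed in more than Ikzf3: Ikzf1 RPKM was higher in DKO than in Ikzf1 KO cells (0.63, adjusted p = 0.0119), as was Cd3e (4.09, adjusted p = 0.000465). Of 8 NK cell markers tested, Prf1 (-2.39, adjusted p = 0.0188) and Gzmb (-2.31, adjusted p = 0.0354) were lower and Eomes (0.59, adjusted p = 0.0349) was higher. The log2 values of these 8 were positive for 4 and negative for 4. The part of these in the members' values was not tested. Atf5 passed under each alternative. Leaving S3 and S4 out of the shared spread, Psph rose and Ddit3, Slc1a5, Aldh18a1 and Eprs fell as well. Asns lost its call here without S5 (-0.94, adjusted p = 0.0921) and without any of S6 and S12 to S15. The median over the 35 members was -0.22, against -0.01 over all genes.

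The difference between these effects was tested as an interaction (DKO minus Ikzf1 KO, minus Ikzf3 KO, plus Cre only). It was negative and passed for 9 of 35 members and positive for 0, where 2.92% of all genes passed in the negative and 3.63% in the positive direction. The largest was Asns, at -3.13 ± 0.59 (adjusted p = 0.00642). Trib3 followed at -2.82 ± 0.44 (adjusted p = 0.00205), then Chac1 at -2.50 ± 0.52 (adjusted p = 0.0104) and Slc1a4 at -2.37 ± 0.44 (adjusted p = 0.00589). Gpt2 stood at -1.76 ± 0.26 (adjusted p = 0.00156), Pycr1 at -1.75 ± 0.35 (adjusted p = 0.00891) and Atf5 at -1.62 ± 0.22 (adjusted p = 0.000845). These 7 passed under each alternative in which they were tested, and 14 members passed without S3 and S4, the others being Ddit3, Lars, Aldh18a1, Slc1a5, Eprs, Nars and Mars. Of the 7, Chac1 and Slc1a4 met the filter of an RPKM of at least 5 only through Ikzf3 KO libraries. Gpt2 and Pycr1 needed those libraries to meet the filter of 1 RPKM. Pck2 (-1.49, adjusted p = 0.0385) and Cars (-1.37, adjusted p = 0.0321) lost their calls without any of 10 and 8 single libraries. With Ikzf1 deleted, the 7 interacting members other than Atf5 and Asns differed by -0.77 (Slc1a4) to -0.12 (Cars) between DKO and Ikzf1 KO cells. None of these values passed.

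Several members with wide scatter came near the threshold without passing. The interaction was -0.77 for Mars (adjusted p = 0.0511), -0.81 for Aldh18a1 (adjusted p = 0.0783) and -2.77 for Ddit3 (adjusted p = 0.106). Of the 12 synthetases, Cars passed the interaction with all libraries in the fit. It did not without S3 and S4 (-1.01, adjusted p = 0.0534), and Lars, Eprs, Nars and Mars passed instead, at -0.93 (adjusted p = 0.00727) to -0.57 (adjusted p = 0.0271).

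**Figure D4:**
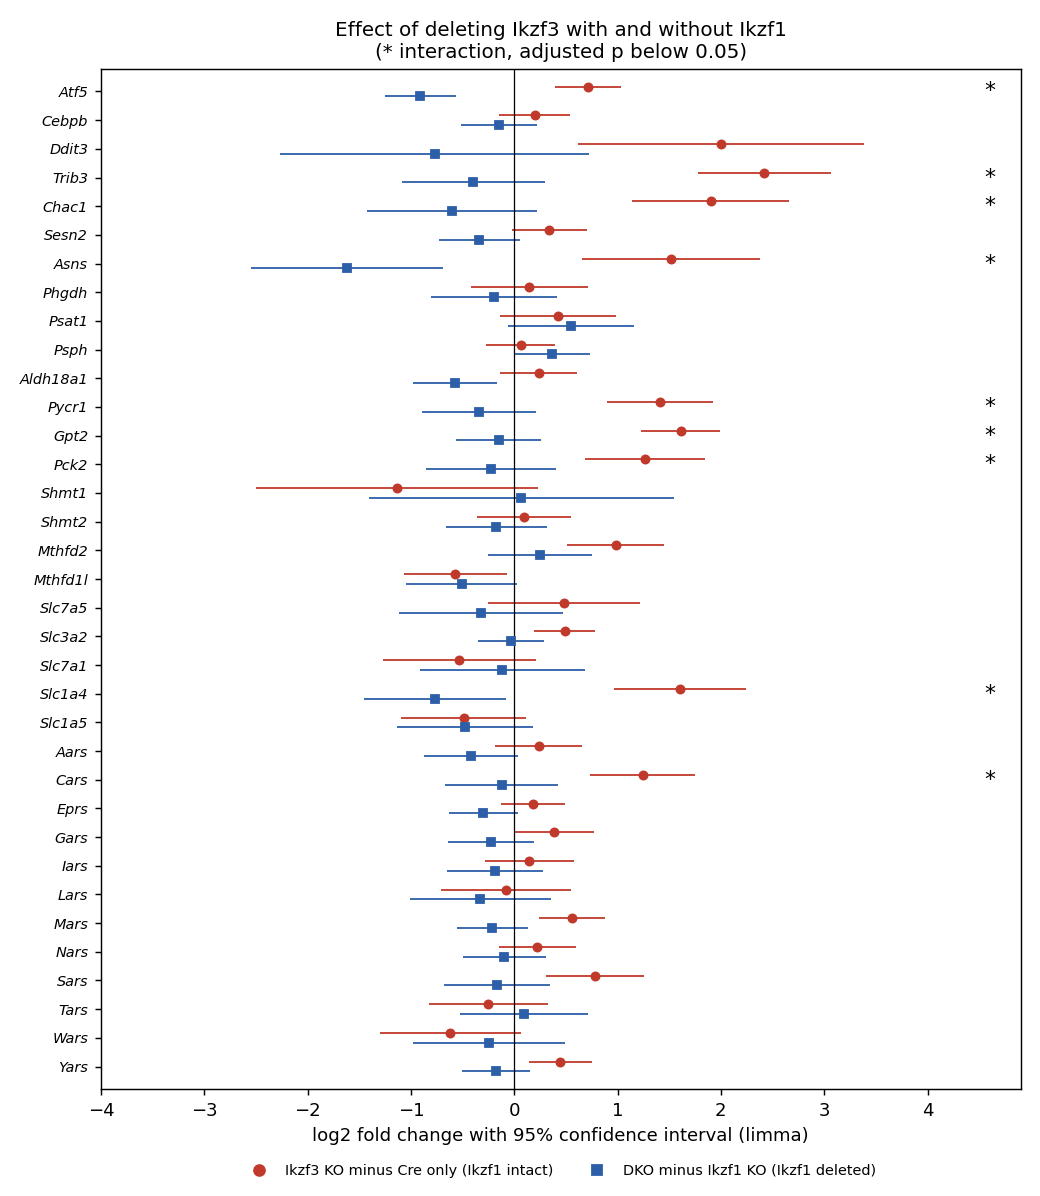
Log2 fold change (horizontal axis) with its 95% confidence interval for each member gene (vertical axis) on deletion of Ikzf3, with Ikzf1 intact (red circles, Ikzf3 KO minus Cre only) or deleted (blue squares, DKO minus Ikzf1 KO). Stars mark the 9 members with a called interaction. Asns and Atf5 lie right of 0 in red (1.51 and 0.71) and left of 0 in blue (-1.62 and -0.91).

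Against Cre only cells the 6 members that fell in DKO cells were Asns, Chac1, Mthfd1l, Cebpb, Atf5 and Aldh18a1. Chac1 fell by 1.17 ± 0.38 (adjusted p = 0.0465) and lost this call without any of 9 single libraries, S5 among them. Cebpb and Atf5 passed under each alternative. Without S3 and S4, which then no longer enter the shared spread, 15 members fell, among them the synthetases Wars, Sars and Eprs and the transporter genes Slc1a5, Slc7a1 and Slc1a4. In DKO libraries 14 members lay below all Cre only libraries, where 19% of all genes did, and 0 above, where 16.1% did. With all libraries in the fit, none of the 12 synthetases and none of the 5 transporters passed. DKO library S5 was the lowest of the 15 for Asns, Slc1a4, Slc7a5 and Mthfd1l. Its values there were 1.15, 0.256, 19.8 and 13.9 RPKM.

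Cell type markers differed between the groups. The 8 NK cell markers with values summed to 9992 to 13963 RPKM in Cre only, 11027 to 11857 in Ikzf1 KO, 3361 to 12807 in Ikzf3 KO and 2121 to 4878 in DKO libraries, so the DKO libraries were below all Cre only libraries. Most of that sum was granzyme B (Gzmb, 753 to 3433 in DKO and 7955 to 11121 in Cre only), whereas the NK receptor gene Ncr1 stood at 184 to 235 in DKO and 106 to 187 in Cre only libraries. Of the 8, Prf1 (-4.60, adjusted p = 6.72e-05), Gzmb (-2.23, adjusted p = 0.0220) and Nkg7 (-0.50, adjusted p = 0.0269) fell in DKO cells, Nkg7 (-0.68, adjusted p = 0.00543) and Tbx21 (-0.59, adjusted p = 0.0303) in Ikzf3 KO cells, and Prf1 (-2.21, adjusted p = 0.0220) in Ikzf1 KO cells. Without S3 and S4, Tbx21 was not called in Ikzf3 KO cells (adjusted p = 0.0970). There Klrb1c was then lower (-0.85, adjusted p = 0.00301), as was Nkg7, and Eomes was higher (0.63, adjusted p = 0.00333). That fit also called Eomes, Klrk1 and Ncr1 higher in DKO cells, and Nkg7 and Klrb1c lower in Ikzf1 KO cells. Of 7 T cell markers 5 had values, and their summed level was 120 to 273 RPKM in DKO against 11.2 to 76.4 in Cre only libraries. Cd3e stood at 24.8, 42.4 and 44.8 RPKM in DKO libraries and at 0.237 to 3.10 in Cre only, while Cd8a stayed at or under 0.761 and Cd4 at or under 1.30 in every library. Of 5 B cell markers 1 had values (Cd79b, at most 2.23), and of 7 myeloid markers 2 (Cd68, at 4.01 to 17.004 in DKO and 14.9 to 34.0 in Cre only, and Lyz2, at most 1.94). Of 5 red cell markers 0 had values. In Ikzf3 KO libraries the T cell markers summed to 18.4 to 45.4, within the Cre only range, and Cd68 stood at 22.7, 30.5, 72.7 and 46.8 in S1 to S4. The part of these markers in the members' values was not tested.

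The direct comparisons of DKO and of Ikzf1 KO with Ikzf3 KO cells share the Ikzf3 KO libraries. In DKO cells 19 members were lower than in Ikzf3 KO cells and 0 higher, where 9.85% and 10.2% of all genes were. The regulators Trib3, Chac1, Atf5, Ddit3 and Cebpb, the enzymes Asns, Aldh18a1, Pycr1, Gpt2, Pck2 and Mthfd2, the transporter genes Slc1a4, Slc3a2 and Slc7a5 and the synthetases Cars, Sars, Yars, Gars and Eprs were lower. The largest differences were Asns, 9.77-fold lower (-3.29 ± 0.43, adjusted p = 0.000120), and Trib3, 9.14-fold lower (-3.19 ± 0.32, adjusted p = 1.11e-05). Slc7a5 (-1.22, adjusted p = 0.0323) and Gars (-0.65, adjusted p = 0.0292) lost their calls without S3 or S5, Ddit3 (-2.51, adjusted p = 0.0212) without S3, S4, S6 or S7, Eprs (-0.52, adjusted p = 0.0308) without S3, S5 or S6, and Pck2 without S6. With S3 and S4 left out 26 members were lower, 18 of the 19 among them, and Pck2 was not called (-0.70, adjusted p = 0.0734). In Ikzf1 KO cells 14 members were lower than in Ikzf3 KO cells and 0 higher, where 8.68% and 9.01% of all genes were. The differences ran from -2.80 ± 0.30 for Trib3 (adjusted p = 3.04e-05) to -0.48 ± 0.14 for Yars (adjusted p = 0.0334), and Cebpb was among them (-0.86 ± 0.16, adjusted p = 0.00259). Here Yars, Pck2 and Atf5 lost their calls without S3, S12 or S15, and Pck2 and Yars also without S13 or S14. With S3 and S4 left out 15 members were lower, 10 of the 14 among them. Asns (adjusted p = 0.0502), Cars (0.0862), Atf5 (0.110) and Pck2 (0.229) then lost their calls, and Nars, Psph, Lars, Iars and Slc7a1 gained one.

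The rest of the pathway was followed through further lists. Of 7 other ATF4-linked genes tested, 2 rose in Ikzf3 KO cells and 0 fell: Jdp2, a repressor of the AP-1 family (0.77 ± 0.13, adjusted p = 0.00217), and Cebpg, a partner of ATF4 (0.54 ± 0.15, adjusted p = 0.0284). Without S3 and S4, Jdp2 passed (0.73, adjusted p = 0.00473) and Cebpg did not (0.25, adjusted p = 0.138), and the list's median went from 0.76 to 0.25. Jdp2 held 16.7, 15.1, 20.2 and 14.3 RPKM in Ikzf3 KO libraries against 8.09 to 11.1 in Cre only. In DKO against Ikzf3 KO cells 5 of the 7 were lower, and without S3 and S4 these were 3, Jdp2, Sqstm1 and Eif4ebp1. A further list of 11 genes held other cytosolic synthetases and genes of accessory proteins (Aimp1, Aimp2 and Eef1e1). Of these 11, 0 passed in Ikzf3 KO cells against Cre only, with a median of 0.01. The 12 member synthetases had a median of 0.23. The medians without S3 and S4, where Aimp2 passed, were 0.13 and 0.49. Among mitochondrial synthetases, Hars2 rose in Ikzf3 KO cells (0.34, adjusted p = 0.0341, and 0.0638 without S3 and S4) and in DKO cells (0.35, adjusted p = 0.0335).

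None of 8 genes of eIF2 kinases, phosphatase subunits and eIF2 itself passed in Ikzf3 KO cells. Eif2ak3, the kinase of the stressed endoplasmic reticulum, fell in DKO cells (-0.75, adjusted p = 0.00993). Of 15 chaperones and unfolded protein response genes, 0 passed in Ikzf3 KO cells and all 15 log2 values were negative, with a median of -0.27. By library, the median difference from the Cre only mean was -0.43 and -0.50 in S3 and S4 and -0.02 and -0.03 in S1 and S2. In the fit without S3 and S4 the list's median was -0.01, with 9 values negative and Ern1 called lower. Of 10 other folate, glycine and methionine enzymes 0 passed in Ikzf3 KO cells (1 without S3 and S4, Gcsh), while Tyms, which serves thymidine synthesis, rose in DKO cells (1.31, adjusted p = 0.0252). Of 8 other proline, glutamate and aspartate enzymes 0 passed in either (Got1 fell in DKO cells without S3 and S4).

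Of 10 other amino acid transporter genes 0 rose and 2 fell in Ikzf3 KO cells, the proton-coupled carrier genes Slc36a1 (-0.88, adjusted p = 0.0194, and 0.132 without S3 and S4) and Slc36a4 (-0.50, adjusted p = 0.00967). Of 23 genes of mTORC1 and amino acid sensing 2 rose and 2 fell. Rragb, a GTPase that brings mTORC1 to the lysosome, rose by 1.13 ± 0.16 (adjusted p = 0.000771) in Ikzf3 KO and by 1.33 ± 0.18 (adjusted p = 0.000111) in DKO cells. Flcn, which acts on such GTPases, fell by 0.90 ± 0.20 in Ikzf3 KO cells (adjusted p = 0.00883, and 0.0670 without S3 and S4). Of 11 cell cycle genes, which summed to 257 to 723 RPKM in Cre only and 533 to 649 in Ikzf3 KO libraries, 1 rose in Ikzf3 KO cells, Bub1 (0.69, adjusted p = 0.0414, and 0.148 without S3 and S4). In Ikzf1 KO cells 4 rose, and 8 without S3 and S4 in the fit.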

How the data were processed

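Polyadenylated RNA of cultured NK cells was sequenced as 75 bp single-end reads from stranded libraries, per the labels. STAR, featureCounts, limma 3.34.9 and mm10 appear, without settings, in the submitters' processing notes. The deposited table gives the authors' RPKM and no read counts. Column names give the genotype, and columns were assigned to the cultured groups, the only ones with matching sizes. Read numbers were recovered from the steps between values in 11291 genes (96.2%, within 0.02 read), and 33 of the 35 members were whole in all libraries. Recovered depth was 8.61 to 21.2 megareads per library, and p-values measure the spread between libraries. Each library was taken as independent, though Ikzf3 KO and Cre only libraries fell into pairs. If the libraries of a pair share a source, which the labels do not say, the p-values may be too small.

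Genes reaching 1 RPKM in 3 or more libraries were fitted as log2(RPKM + 0.5) by limma 3.58.1 under R 4.3.3, with a group means design, a mean-variance trend and robust moderation on 11 residual degrees of freedom. Tests were 2-sided, with Benjamini-Hochberg adjustment over 10032 genes and calls at an adjusted p below 0.05. The fit was tested on simulated data.

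Members and lists were chosen with earlier results of these data known. Values in every library are given for members called against Cre only cells and for groups a result turns on. Up to 3 called genes per further list are named, and some genes of these lists are not reported here. Alternatives covered the pseudocount, filter, scaling, weights, moderation, groups in the fit and libraries left out. Annotation was GENCODE release M21 and promoters were from RefSeq.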

Additional observations from a re-analysis of the deposited data

Results flagged for a closer look

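In 3 of 105 sets of a member's values in a group (2.86%), 1 library stood far from the rest by Dixon's criterion for 4 samples (0.829), which chance reaches in about 1 of 20 sets. Aldh18a1 was low in Ikzf3 KO library S4, at 29.9 RPKM against 45.1 to 46.95 in the other 3. Aars was low in the same library, at 17.1 RPKM against 27.7 to 29.2. Slc3a2 was high in Ikzf3 KO library S3, at 91.0 RPKM against 59.5 to 64.8.

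For 9 members the effect of deleting Ikzf3 differed between cells with Ikzf1 intact and deleted, by the interaction in limma. On the log2 scale it was -3.13 for Asns, -2.82 for Trib3, -2.50 for Chac1, -2.37 for Slc1a4, -1.76 for Gpt2, -1.75 for Pycr1, -1.62 for Atf5, -1.49 for Pck2 and -1.37 for Cars.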

How the results depend on the processing

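No paired analysis was possible because the columns carry none of the labels' replicate numbers. Members called in Ikzf3 KO against Cre only cells (14) numbered 9 with only these groups in the fit, 25 with array weights, 5 without S16 and S17, 9 without S3 and S4, and 9 to 16 when 1 library was left out. In Ikzf1 KO against Cre only cells (1) the count was 6 with only these groups, 12 with array weights, 0 without S16 and S17, 0 without S18 and S19, 4 with S5, S15, S18 and S19 as a term (a set that an earlier analysis of these data found), and 0 to 2 with 1 library left out. In DKO against Cre only cells (6) it was 15 without S3 and S4, 3 without S18 and S19, 15 with that set as a term and 4 to 8 with 1 library left out. In DKO against Ikzf1 KO cells (2) it was 7 with only these groups, 5 with array weights, 7 without S3 and S4, 8 with the set as a term and 1 to 3 with 1 library left out. DKO against Ikzf3 KO (19) gave 8 with only these groups, Ikzf1 KO against Ikzf3 KO (14) gave 27 with array weights, and the interaction (9) gave 17 with array weights and 14 without S3 and S4. The cause of these shifts was not tested, apart from fewer libraries or groups in a fit.

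Directions reversed for Shmt1 and Wars in Ikzf3 KO against Cre only cells, neither called (-1.13 and -0.62): 0.29 and 0.11 with array weights, and 0.41 and 0.17 without S3 and S4. Pseudocounts, filters and scalings left each count within 1.5 times. The interaction has no value with only 2 groups in the fit, the set term was used only for comparisons without the Ikzf3 KO group, and array weights stopped short of their convergence tolerance. Depth limits Chac1, Pycr1, Gpt2 and Slc1a4, whose lowest libraries hold 0 to 21 reads.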
